A study of Mus musculus with 3 samples.

Results

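The γδ T cells of the graft numbered 111 of the 2144 cell barcodes kept from the graft library, or 5.18% (exact Clopper-Pearson 95% interval 4.28% to 6.20%). They were selected on measured counts of unique molecular identifiers (UMIs), which count captured RNA molecules. Genes of the interleukin-17 (IL-17) programme did not enter the choice. Most of the cells carried markers of it, and 4 had no UMI of *Il17a*, *Il23r*, *Blk* or *Cd163l1*. A barcode was kept if it had at least 300 genes, fewer than 100000 gene UMIs and less than 10% mitochondrial UMIs. A member then needed at least 2 UMIs of the CD3 chains *Cd3d*, *Cd3e* and *Cd3g* together, and at least 2 of the γδ receptor constant genes *Trdc* and *Tcrg-C1* together. It could hold at most 5 UMIs of the complement genes *C1qa*, *C1qb* and *C1qc*, which mark macrophages, and less than 2% of its UMIs from *S100a8* and *S100a9*, which mark neutrophils. The levels of these genes are therefore a description of the choice and not a result.

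The graft library (hSTSG) came from human split-thickness skin placed subcutaneously in C57BL6/J mice and taken out after 14 days, with the grafts of 5 mice pooled and digested with collagenase. The features in the files are mouse genes, no human genes were counted, and the origin of the cells was not analysed here. The other 2 libraries of the series were bone marrow cells of C57/BL6 mice cultured with GM-CSF for 7 days, either untreated (Co-Mac) or given 1,25 dihydroxy-cholecalciferol, the active form of vitamin D3, for 24 h (VD-Mac). The graft library held 24472168 gene UMIs in 2644 barcodes, and the kept barcodes held a median of 6638 UMIs. With 1 library for each condition there is no replicate, and cells of the pool cannot be assigned to a mouse. No test was therefore made, and the intervals given are exact at 95% and cover counting error only.

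γδ T cells build their antigen receptor from a γ and a δ chain in place of the α and β chains of conventional T cells. A subset leaves the thymus already committed to IL-17, settles in barrier tissues such as the dermis, and answers IL-23 and IL-1 directly without previous priming. The IL-17 it releases acts on fibroblasts and epithelium, which in turn recruit neutrophils, and the same cells take part in skin repair. The murine epidermis also holds another γδ population, the dendritic epidermal T cells, with a different γ chain.

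In most cells the label of IL-17 γδ T cells held for the markers that did not enter the choice. Of *Il17a*, *Il23r*, *Blk* and *Cd163l1*, 107 of the 111 cells had a UMI of at least 1, and 13 cells had UMIs of all 4. Most of this count came from *Cd163l1*, found in 100 cells, while *Il17a* was found in 51. In 24 cells only 1 of the 4 was found. In the comparison group of αβ T cells, 123 of 136 cells had none of them and none had more than 2. These αβ T cells met the same CD3, C1q and S100 limits, had no *Trdc* or *Tcrg-C1* UMI, and had at least 2 UMIs of *Trac*, *Trbc1* and *Trbc2*. Depth was close in the 2 groups. The γδ T cells held a median of 5785 UMIs (lowest 2563, highest 33734) and 2197 genes, against 6214 UMIs and 2156 genes in the αβ T cells. The median mitochondrial share was 3.02% in the γδ and 3.68% in the αβ T cells.

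The thresholds were met with room to spare in most cells. The members held 2 to 54 receptor UMIs with a median of 12, and 2 to 47 CD3 UMIs with a median of 10. Among the 259 CD3 barcodes within the C1q and S100 limits, 141 had no receptor UMI, 7 had 1, 2 had exactly 2 and 5 had 3, so few lay near the limit. Of the 7 barcodes just outside, 3 had a *Cd163l1* UMI and 2 an *Il17a* UMI, and of the 2 barcodes just inside, 1 had a *Cd163l1* UMI and 1 an *Il17a* UMI. A further 10 kept barcodes met the receptor part with fewer than 2 CD3 UMIs, and 6 of these carried *Cd163l1*. No barcode was lost to the C1q limit and 3 were lost to the S100 limit, where the nearest lay at 2.06% and the highest member at 0.982%. The same rule found 0 of 7257 kept barcodes in Co-Mac, which at 3 counts of the total allows a share of up to 0.0413%, and 0 of 8825 in VD-Mac, which allows up to 0.0340%. The graft shared 7 barcode sequences with Co-Mac, none of them that of a member, and 7 with VD-Mac, of which 1 was that of a member.

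Of the 6 δ variable features looked up, those whose names begin with *Trdv*, only 1 had UMIs in the members. This feature, *Trdv4*, was found in 88 of 111 cells. It had 272 UMIs or 371 CPM (UMIs of the gene for each 1e6 gene UMIs of the group). It was at 0 UMIs in the αβ T cells, so it was at least 123-fold higher in the γδ T cells against a floor of 3 counts. No cell had UMIs of a different feature of these 6, and 23 cells had none of any. In an assay that reads the far end of the transcript this does not show that they lack a δ segment. Variable segments with other names were not looked up, so the use of a different δ segment was not tested. Of the γ variable features, *Tcrg-V6* was found in 9 cells (15.0 CPM), *Trgv2* in 17, and *Tcrg-V4* and *Tcrg-V5* in 2 cells each. Of the 26 cells with a γ variable UMI, 4 had UMIs of 2 or more such features. *Trdv4* is used both with *Tcrg-V6*, by the fetal-derived IL-17 producers of dermis and other tissues, and with *Tcrg-V5*, by the epidermal cells. Of the 9 *Tcrg-V6* cells, 7 also carried *Trdv4*. The constant genes *Tcrg-C2* (51.8 against 12.1 CPM) and *Tcrg-C4* (39.5 against 11.1 CPM) were higher in the γδ T cells too, although near-identical γ constant genes can share reads. With at most 1 αβ receptor UMI allowed *Tcrg-C2* was within 2-fold (log2 0.72). The 4 genes of the receptor list that could be compared entered through their level in the γδ T cells, and the αβ T cells were chosen without *Trdc* and *Tcrg-C1*, so their higher levels describe the choice. Of the others, 2 were part of the rule, 4 were too sparse, and 14 of the 24 features had no UMI in either group. UMIs of *Trac*, *Trbc1* and *Trbc2* were present as well, with a median of 4 in each γδ T cell (0 to 34) and 8 in each αβ T cell, and 12 γδ T cells had none.

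*Il17a*, which encodes the signature cytokine, was found in 51 of 111 γδ T cells, or 45.9% (36.4% to 55.7%). After each cell was thinned to 2000 UMIs, which left out no T cell of either group, the share was 36.9% (28.0% to 46.6%), against 2.94% (0.807% to 7.36%) of the αβ T cells. Droplets also pick up free RNA, and its level can be read in cells that do not make the cytokine. Macrophage-type barcodes (more than 5 C1q UMIs and fewer than 2 CD3 UMIs), with a median depth of 12245 UMIs, showed *Il17a* in 1.52% of 660 barcodes and in 0.318% of the 628 that could be thinned. It was in 0 of 391 neutrophil-type barcodes, of which 110 were too shallow to thin, and in 0 of 140 fibroblast-type barcodes. The share in γδ T cells thus lay far above that in cells that should lack the cytokine. The other markers outside the rule gave the same picture after thinning, with *Blk* in 26.1% of γδ and 0% of αβ T cells, *Il23r* in 12.6% and 1.47%, and *Cd163l1* in 78.4% and 0.735%.

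**Figure D1:**
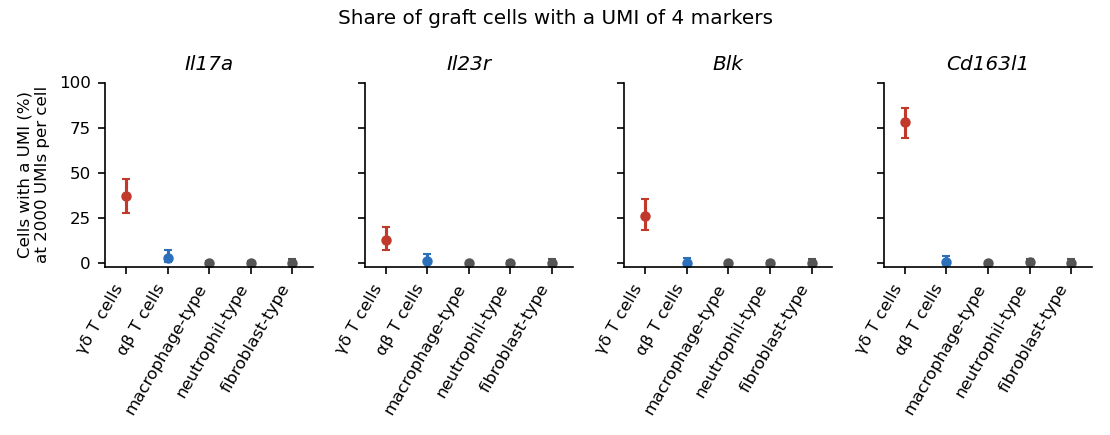
Share of cells with a UMI of *Il17a*, *Il23r*, *Blk* and *Cd163l1* in 5 groups of graft barcodes, each cell thinned to 2000 UMIs; points are shares in percent and bars exact 95% Clopper-Pearson intervals. The share with *Cd163l1* was 78.4% in γδ T cells and under 1% in each other group shown.

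The level of *Il17a* was uneven among the cells. Summed over the group it was 1831 CPM (1734 to 1932) in γδ and 90.5 CPM (72.8 to 111) in αβ T cells, a ratio of 20.2-fold (log2 4.34, 4.03 to 4.66). Of the 1343 UMIs, 892 came from 2 cells with 476 and 416 UMIs, and 17 of the 51 positive cells had a single UMI. Without those 2 cells, left out after the values were seen, the level was 628 CPM and the ratio 6.94-fold, and without the 5 highest it was 396 CPM and 4.38-fold. In the αβ T cells the 90 UMIs lay in 4 cells, and 48 of them in 1, without which the αβ level was 42.5 CPM. With the 2 highest cells left out of both groups, also after the values were seen, *Il17a* was at 628 against 3.05 CPM (log2 7.69). *Il17f*, the neighbouring family member, was found in 20 γδ T cells at 603 CPM, against 8 cells and 87.5 CPM in αβ T cells (log2 2.78, 2.45 to 3.13), and 90.7% of its UMIs lay in 5 cells. Without its 2 highest γδ T cells it was at 219 CPM (log2 1.32), and without the highest αβ T cell the αβ level was 46.5 CPM. Of the 20 *Il17f* cells, 18 also had *Il17a*. *Il22*, which acts on epithelium, was found in 10 γδ T cells and 8 of these had *Il17a*. Its level was 95.4 against 12.1 CPM (log2 2.98), and 23.8 CPM (log2 0.98) without its 2 highest γδ T cells. Without the 5 highest γδ T cells of each gene the direction turned, with *Il17f* at 61.2 against 87.5 CPM (log2 -0.52) and *Il22* at 10.03 against 12.1 CPM (log2 -0.27). With the 5 highest cells left out of both groups, *Il17f* was at 61.2 against 3.12 CPM (log2 4.29) and *Il22* at 10.03 against 0. The levels of these cytokines were thus carried by few cells in both groups.

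Other cytokines of the same list were spread more evenly. Lymphotoxin β (*Ltb*) was found in 88 γδ T cells, at 1107 against 380.2 CPM (log2 1.54, 1.36 to 1.72). *Tnf* was found in 59 cells, at 169 against 39.2 CPM (log2 2.11, 1.58 to 2.67). Of the 10 cytokine genes listed, all 5 that passed the filter were more than 2-fold higher in γδ T cells, 3 were too sparse and *Il17c* and *Il17d* had no UMI in either group. Across all genes the same filter left 6117 genes (at least 20 CPM in 1 of the groups and UMIs in at least 10% of its cells), of which 374 or 6.11% were 2-fold or more higher and 316 or 5.17% lower, with 5 CPM added to each level. The γδ and αβ cells were separated by the choice itself, so these counts describe the contrast and support nothing further. In this list and those below, a gene could also pass the filter in 1 group alone. The direction of such a gene follows in part from the filter.

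The receptors for the cytokines that drive the programme formed the next group. *Il23r*, the specific chain of the IL-23 receptor, was found in 35 γδ and 5 αβ T cells, at 64.1 (47 UMIs) against 5.03 CPM (log2 3.67, 2.35 to 5.36). Its partner chain *Il12rb1* was at 28.6 against 11.1 CPM (log2 1.37, 0.25 to 2.57). The IL-1 receptor *Il1r1* was found in 47 γδ T cells, at 102 against 21.1 CPM (log2 2.28, 1.56 to 3.05). *Il2ra*, the high-affinity chain of the IL-2 receptor, was at 1342 against 587 CPM and was found in 92 cells. Some chains shared by many T cells were within 2-fold, with *Il7r* at 712 against 570.2 CPM, *Il2rg* at 262 against 256 CPM and *Il18r1* at 185 against 178 CPM. The IL-6 receptor chains *Il6ra* (8.18 against 32.2 CPM) and *Il6st* (8.18 against 47.3 CPM) were lower. Of the 18 genes of this list, 4 were higher, 3 lower and 11 within 2-fold, and the median log2 ratio was -0.02 beside 0.07 for all genes compared.

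Among the regulators, *Zbtb16*, the innate-like lymphocyte factor PLZF, was found in 45 γδ T cells, at 102 against 14.1 CPM (log2 2.86, 2.03 to 3.80). *Sox13*, a factor of the fetal γδ lineage, had 9.54 CPM (7 UMIs) in 5 γδ T cells and 0 UMIs in αβ T cells, at least 3.16-fold higher. After thinning it was found in 1 γδ T cell. It was too sparse to enter the genes compared, as was *Sox4* at 2.73 (2 UMIs) against 3.02 CPM (3 UMIs). *Nfkbiz*, a co-activator of IL-17 responses, was at 650.3 against 234 CPM (log2 1.47, 1.24 to 1.70). *Maf*, *Hif1a*, *Stat3* and *Batf*, which conventional Th17 cells also use, were within 2-fold, with *Maf* at 633 against 600.4 CPM. *Ahr* was lower in γδ T cells, at 13.6 against 53.3 CPM (log2 -1.97, -3.11 to -0.98), but within 2-fold (log2 -0.84) when at most 1 αβ receptor UMI was allowed. Of the 12 regulators compared, 4 were higher, 1 lower and 7 within 2-fold, with a median log2 ratio of 0.59.

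The surface and other marker genes were mostly higher in γδ T cells. *Cd163l1*, the scavenger receptor SCART1 of IL-17 γδ T cells, was found in 100 γδ T cells and in 6 αβ T cells. Its level was 920.2 CPM (852 to 992) against 6.03 CPM, a log2 ratio of 7.25 (6.12 to 8.70), and its UMIs were spread over the cells (median 5, highest 28). The related gene *5830411N06Rik*, SCART2, was at 25.9 against 23.1 CPM (log2 0.16) and was found in 4 γδ T cells. Its log2 ratio was -0.06 with equal weight for each cell and -2.22 with at most 1 αβ receptor UMI allowed. *Cxcr6*, a receptor for the tissue chemokine CXCL16, was found in 100 γδ T cells, at 1658 against 359 CPM (log2 2.21, 2.04 to 2.38). The water and glycerol channel *Aqp3* was at 329 against 41.2 CPM, the actin binding gene *Actn2* at 135 against 16.1 CPM and the protease inhibitor *Serpinb1a* at 299 against 96.5 CPM. *Tmem176a* (382 against 85.5 CPM) and *Tmem176b* (269.9 against 61.3 CPM), a pair of ion channel genes, were higher by similar factors. *Ccr6*, a skin and gut homing receptor of many IL-17 cells, was at 8.18 (6 UMIs) against 16.1 CPM, with an interval of the log2 ratio from -2.62 to 0.45, and *Ccr2* was at 419.9 against 228 CPM. Of the 21 genes listed, 14 were higher, 0 lower and 5 within 2-fold, and 2 were too sparse. The median log2 ratio was 2.04, or 1.58 over all genes listed. *Cd163l1*, *Il23r*, *Kcnk1*, *Actn2* and *Ckb* passed the filter in γδ T cells only, so their direction describes the filter.

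**Figure D2:**
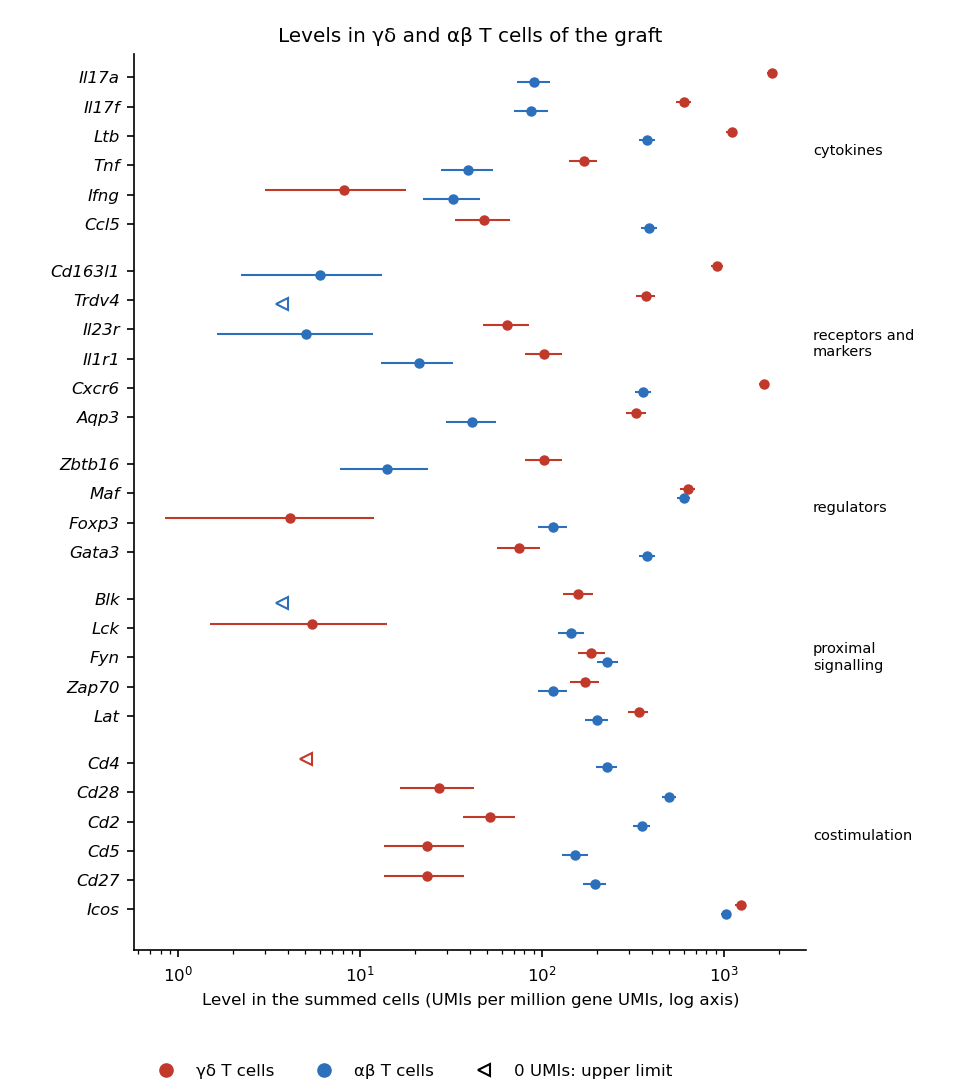
Levels of 27 genes in the 111 γδ T cells (red) and 136 αβ T cells (blue) of the graft, in CPM on a log axis; bars are exact 95% Poisson intervals and open triangles upper limits where a group had 0 UMIs. *Blk* and *Lck* lie on opposite sides: *Blk* was at 158 CPM in γδ and 0 in αβ T cells, *Lck* at 5.45 and 145 CPM.

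Among the proximal receptor signalling genes *Lck*, the Src-family kinase that starts receptor signalling in conventional T cells, was found in 3 of 111 γδ T cells against 77 of 136 αβ T cells, at 5.45 against 145 CPM (log2 -4.73, -6.63 to -3.34). *Blk*, a Src-family kinase known from B cells and IL-17 γδ T cells, was found in 58 γδ T cells at 158 CPM (131 to 190). It had 0 UMIs in αβ T cells, so it was at least 52.4-fold higher. The other Src-family kinase of T cells, *Fyn*, was at 187 against 228 CPM. The downstream genes *Zap70* (172 against 115 CPM), *Lat* (339 against 200.1 CPM) and *Lcp2* (194 against 230.3 CPM) were within 2-fold. *Ptprc*, the phosphatase CD45, was lower at 417 against 1136 CPM (log2 -1.45, -1.63 to -1.26), and *Fcer1g* was at 45.0 against 111 CPM. Of the 10 genes compared, 1 was higher, 3 lower and 6 within 2-fold, and the 3 CD3 chains were part of the rule.

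Coreceptors and costimulatory receptors were mostly lower. *Cd4* had 0 UMIs in γδ T cells and was found in 79 αβ T cells at 226 CPM, at least 55.3-fold lower. *Cd28* was at 27.3 against 501 CPM (log2 -4.20, -4.92 to -3.56), and *Cd27*, whose loss marks IL-17 rather than interferon producers among γδ T cells, was at 23.2 against 195 CPM (log2 -3.07, -3.88 to -2.36). *Cd2* (51.8 against 353 CPM), *Cd5* (23.2 against 152 CPM) and *Cd6* (34.1 against 177 CPM) were low in the same way. The log2 ratio of *Cd2* was -2.77, and -4.57 with at most 1 αβ receptor UMI allowed. *Cd8a* and *Cd8b1* were found in 1 γδ T cell each. The inducible costimulator *Icos* stood apart at 1237 against 1026 CPM, and the memory marker *Cd44* was higher at 765 against 307 CPM (log2 1.32, 1.11 to 1.52). Of the 9 genes compared, 7 were lower and 1 higher, and the median log2 ratio was -2.59. *Cd4*, *Cd28*, *Cd27* and *Cd40lg* passed the filter in αβ T cells only.

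Genes of other T cell programmes were lower or within 2-fold. *Ifng* was at 8.18 CPM (6 UMIs in 3 cells) against 32.2 CPM. *Ccl5* was at 47.7 against 389 CPM (log2 -3.03, -3.57 to -2.53) and *Cxcr3* at 8.18 against 43.2 CPM. *Gzmb* was found in 52 γδ T cells at 349 against 180.02 CPM, within 2-fold, and the activating receptor *Klrk1* in 57 at 135 against 68.4 CPM (log2 0.98, 0.52 to 1.45). *Gzma* was even at 383 against 395 CPM, but 271 of its 281 UMIs lay in 1 γδ T cell, and without that cell, left out after the values were seen, it was at 13.9 CPM. Of the 14 type 1 and cytotoxic genes compared, 0 were higher, 7 lower and 7 within 2-fold. The 7 lower ones passed the filter in αβ T cells only. *Il4*, *Il5* and *Il13* had 0 UMIs in γδ T cells and 31.2, 32.2 and 35.2 CPM in αβ T cells. The IL-33 receptor *Il1rl1* had 0 UMIs against 363 CPM, at least 88.8-fold lower, *Foxp3* was at 4.09 against 115 CPM and *Ctla4* at 10.9 against 424 CPM. These last genes describe the αβ T cells as much as the γδ T cells, since *Foxp3* was found in 21 and *Il1rl1* in 28 αβ T cells. Of the 8 type 2 and regulatory genes compared, 7 were lower and *Tgfb1* was within 2-fold. The median log2 ratio was -3.65, or -2.89 over all genes listed. *Il1rl1*, *Foxp3*, *Ctla4*, *Tnfrsf4* and *Tnfrsf18* passed the filter in αβ T cells only, so their direction describes the filter.

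Among the residency genes *Cd69*, which holds lymphocytes in tissue, was at 991 against 269.5 CPM (log2 1.88, 1.67 to 2.09) and was found in 92 γδ T cells. The egress receptor *S1pr1* that it opposes was at 34.1 against 151 CPM, and its inducer *Klf2* at 24.5 against 115 CPM. The integrin *Itgae* was at 165 against 76.4 CPM and *Cxcr4* at 988 against 408 CPM. Of 12 residency and chemokine receptor genes compared 4 were higher, 1 lower and 7 within 2-fold, and of 7 naive and recirculation genes 6 were lower. Among the checkpoint receptors *Pdcd1*, the receptor PD-1, was found in 76 γδ T cells at 359 against 75.4 CPM (log2 2.25, 1.87 to 2.64), while *Lag3* had 1 UMI, at 1.36 against 129 CPM (log2 -6.56, -11.88 to -4.06). *Havcr2* and *Tox* were even.

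Of the tissue repair genes, *Furin*, a protease that activates growth factors and TGF-β, was found in 106 γδ T cells at 1466 against 463 CPM (log2 1.66, 1.50 to 1.82). *Vegfa* was found in 14 γδ T cells at 53.2 against 11.1 CPM (log2 2.26, 1.27 to 3.38), or 32.6 CPM without its 2 highest cells. Without the 5 highest γδ T cells, which held 74.4% of its UMIs, it was within 2-fold at 15.0 CPM (log2 0.43), and with 5 left out of both groups it was at 15.0 against 5.30 CPM (log2 1.50). Amphiregulin (*Areg*), a repair factor of tissue lymphocytes, was at 571 against 396 CPM and was found in 29 cells of each group, with 126 of the 419 UMIs of the γδ T cells in 1 cell. Without the 2 highest γδ T cells it was at 324 CPM (log2 -0.29), without the 2 highest cells of both groups at 324 against 219 CPM (log2 0.56), and with equal weight for each cell the log2 ratio was 1.06. *Tnfsf11* was lower, at 8.18 against 121 CPM. Of the 5 genes compared, 2 were higher and 1 lower, 8 were too sparse, and 3 had no UMI in either group. Immediate early genes were mostly within 2-fold, with *Fos* (241 against 68.4 CPM) and *Ier2* (341 against 136 CPM) higher and the other 9 genes compared not. In the cell cycle list 8 of 9 genes were within 2-fold and *Stmn1* was lower, and *Mki67* was found in 6 γδ and 13 αβ T cells. Glycolysis genes were within 2-fold in 15 of 16 cases, with *Ldha* at 406 against 677 CPM (log2 -0.74, -0.94 to -0.54), and the exception was the phosphofructokinase *Pfkp* at 258 against 84.5 CPM (log2 1.61, 1.23 to 2.00). Of 6 lipid genes compared, *Scd2* was lower and 5 were within 2-fold. In the list for dendritic epidermal T cells, *Trdv4* and *Itgae* were higher, *Fcer1g* and *Ctla2a* lower, and *Cd160* and *Xcl1* were found in 1 and 2 γδ T cells.

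The 15 genes with the highest ratios to αβ T cells, ranked with 5 CPM added to each level among genes with at least 50 CPM and without those of the rule, began with *Cd163l1*, *Trdv4* and *Blk*. *Ptgs2*, the prostaglandin synthase COX-2, came next at 320.4 against 9.05 CPM (log2 5.15, 4.20 to 6.29) in 28 γδ T cells. It was widely found elsewhere in the graft, in 48.1% of neutrophil-type (45.6% thinned) and 47.7% of macrophage-type barcodes (26.3% thinned), against 25.2% of γδ T cells (20 of 111 cells thinned) and 4.41% of αβ T cells (2.21% thinned). The part of free RNA in its level was not tested. The matrix genes *Abi3bp* (123 CPM in 50 cells against 1 UMI, log2 6.93, 4.42 to 12.25) and *Npnt* (209.95 against 8.05 CPM, in 64 cells), which encodes nephronectin, followed with *Il17a* between them. *Bcl2a1a*, an anti-apoptotic gene with near-identical copies that can share its reads, was at 262 against 14.1 CPM. *Igf1r*, the receptor of insulin-like growth factor, was found in 95 γδ T cells at 642 against 54.3 CPM (11.8-fold). The rest of the 15 were *St3gal3*, *Edil3*, *Pde5a*, *Cryba4*, *Prelid2* and *Acpp*, with log2 ratios of 3.30 (*Acpp*) to 5.02 (*St3gal3*).

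The 10 genes at the other end of that ranking were *Il1rl1*, *Cd4*, *Lgals7*, *Ifi27l2a*, *Tnfsf8*, *Tnfrsf4*, *Ctla4*, *Lag3*, *Hdc* and *Gm8369*. The interferon-inducible *Ifi27l2a* was at 27.3 against 1212 CPM (log2 -5.47, -6.19 to -4.84), and was found in 10 γδ and 77 αβ T cells. The costimulatory receptor *Tnfrsf4*, OX40, was at 15.0 against 569 CPM (log2 -5.25, -6.26 to -4.40). *Lgals7* and *Hdc* were set by few cells, with 43.5% and 34.9% of their αβ UMIs in 1 cell each, and without it the αβ levels fell from 224 to 129 CPM and from 397 to 262 CPM. Against all other kept barcodes of the graft, the 10 genes outside the rule that ranked highest with 5 CPM added were *Il17a*, *Cd163l1*, *Il17f*, *Cxcr6*, *Trdv4*, *Pdcd1*, *Aqp3*, *Npnt*, *Ltb* and *Blk*. There *Cd163l1* was at 920.2 against 3.01 CPM and *Blk* at 158 against 0.411 CPM, the latter on 9 UMIs. *Il17a* was at 1831 against 7.71 CPM, with 1343 UMIs in the 111 γδ T cells and 169 in all the others together.

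Within the group *Il17a* was less evenly spread than the identity genes named here and than the cytokine gene *Ltb*, which had a UMI in 79.3% of cells and 19.3% of its UMIs in the 5 highest. *Cd163l1* had a UMI in 90.1% of cells and its 5 highest cells held 13.6% of its UMIs, *Trdv4* had 79.3% and 19.5%, and *Cxcr6* 90.1% and 13.7%. For *Il17a* those figures were 45.9% and 79.3%. *Il23r*, with at most 3 UMIs in a cell, was detected near the limit of the assay, so a cell outside its share of 31.5% may still express it. *Il23r* was found in 22 of the 51 cells with *Il17a* and in 13 of the 60 without. *Cd163l1* was found in 49 and 51 of them. Cells with and without *Trdv4* held *Il17a* at alike shares after thinning, 35.2% of 88 (25.3% to 46.1%) and 43.5% of 23 (23.2% to 65.5%). Its level was lower in the cells with *Trdv4*, at 1447 against 3197 CPM (log2 -1.14, -1.30 to -0.98). In the cells with *Trdv4*, 1 cell held 476 of the 829 *Il17a* UMIs, and in those without, 1 cell held 416 of the 514. The level on each side, and the ratio between them, thus rested in large part on 1 cell of each.

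**Figure D3:**
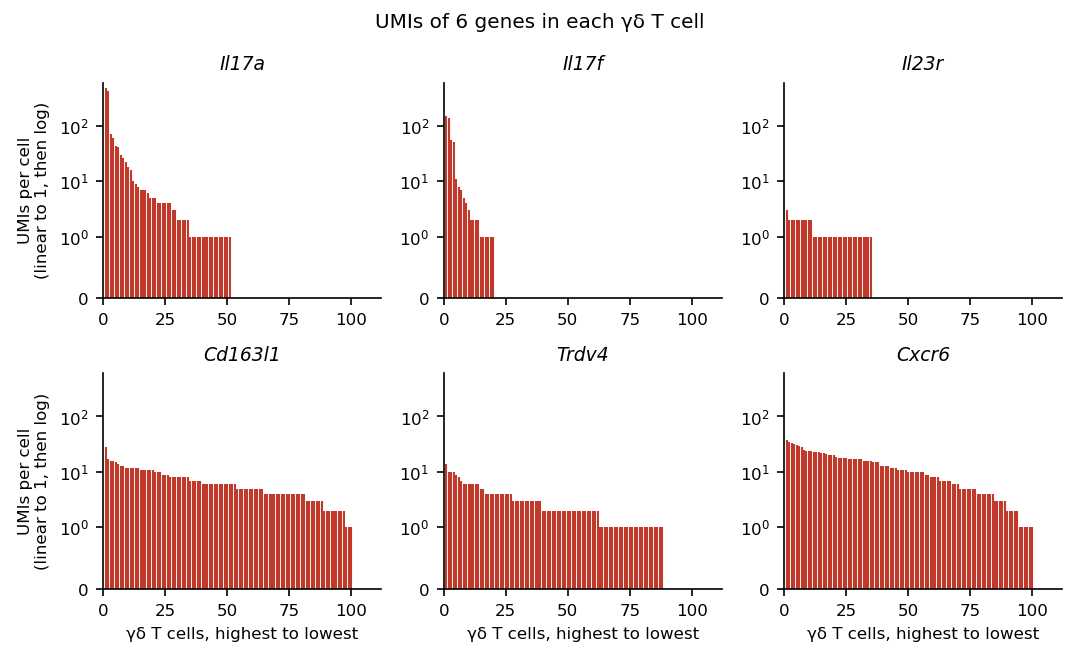
UMIs of *Il17a*, *Il17f*, *Il23r*, *Cd163l1*, *Trdv4* and *Cxcr6* in each of the 111 γδ T cells, sorted from the highest to the lowest for each gene; the vertical axis is linear up to 1 UMI and logarithmic above. *Il17a* and *Il17f* drop steeply from 476 and 147 UMIs, while *Cd163l1*, *Trdv4* and *Cxcr6* fall slowly over most cells.

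The cells were also divided by whether they had an *Il17a* UMI, a division made after the values were seen. The 51 cells with *Il17a* and the 60 without had median depths of 5682 and 5798 UMIs. *Cd163l1* (879 and 957 CPM), *Blk* (170.04 and 147 CPM) and *Cxcr6* (1695 and 1625 CPM) were alike on both sides. In the cells with *Il17a*, *Ptgs2* was higher at 591 against 77.6 CPM (log2 2.93, 2.37 to 3.53), *Areg* at 968 against 215 CPM (log2 2.17, 1.82 to 2.54), or 618 CPM without its highest cell, and *Nfkbiz* at 893 against 432 CPM (log2 1.05, 0.77 to 1.33). Without the 2 highest cells of each gene *Ptgs2* was at 389.9 CPM and *Areg* at 449 CPM (log2 1.06). Of the immediate early genes, which also respond to tissue handling, some moved the same way and others, such as *Egr1* (log2 0.19, -0.48 to 0.87) and *Dusp1* (log2 0.29, -0.05 to 0.63), stayed within 2-fold. *Fos* was at 346 against 147 CPM (log2 1.23, 0.76 to 1.71), *Jun* at 346 against 160.4 CPM (log2 1.11, 0.65 to 1.57), *Fosb* at 210.4 against 95.7 CPM (log2 1.14, 0.55 to 1.75) and the heat shock gene *Hspa1b* at 1928 against 802 CPM (log2 1.27, 1.07 to 1.46), or 1209 CPM (log2 0.59) without its 2 highest cells. *Il23r* was at 92.2 against 38.8 CPM (log2 1.25, 0.32 to 2.24). *Ltb* went the other way, at 625 against 1539 CPM (log2 -1.30, -1.53 to -1.07), as did *Zbtb16* at 60.5 against 140 CPM (log2 -1.21, -2.01 to -0.46).

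Markers of other cell types were present at levels that differed between types. Of the 111 γδ T cells, 15 had UMIs of 3 or more of the markers *Lyz2*, *Cd79a*, *Col1a1*, *Col3a1*, *Mcpt4*, *Krt14*, *Pecam1*, *C1qa* and *S100a8*, with *Pecam1* in 37 cells, *Lyz2* in 28 and *Col3a1* in 27. Without the 15 cells the log2 ratio of *Il17a* was 4.61, and 420 genes were higher and 335 lower. Of 6 mast cell markers, *Kit* was present (8.18 CPM) and *Mcpt4*, *Mcpt8*, *Cpa3*, *Ms4a2* and *Fcer1a* were at 0. Of 6 keratinocyte markers, *Krt5*, *Krt14*, *Krt15* and *Krt1* were at 0, and the sum was 9.54 CPM, mostly *Krt10*. The 6 B cell markers summed to 32.7 CPM with *Cd79a* at 0, the 5 red blood cell markers to 65.4 CPM, led by *Hbb-bs*, with *Alas2* at 0, and the 6 fibroblast markers to 91.3 CPM, led by *Col3a1*, with *Lum* and *Pdgfra* at 0. The 6 endothelial markers summed to 88.6 CPM, nearly all *Pecam1*, with *Cdh5*, *Kdr*, *Tie1* and *Emcn* at 0. *Pecam1* was at 85.9 CPM in γδ and 89.5 CPM in αβ T cells, and at 195 CPM in neutrophil-type barcodes. Its UMIs alone therefore do not show a mixed cell, although they counted among the markers for the 15 cells. All 7 macrophage markers had UMIs, with a sum of 146 CPM (171 CPM in αβ T cells) led by *Apoe*, and all 6 neutrophil markers, with a sum of 304 CPM (147 CPM in αβ T cells) led by *S100a8*. The highest γδ T cell held 134 UMIs of the neutrophil markers and the highest αβ T cell 53. The difference between these 2 sums therefore rests in large part on 1 cell. Monocyte markers summed to 682 CPM, of which 419.9 CPM was *Ccr2*, a gene T cells also use. The 6 NK cell markers summed to 417 CPM (439.5 CPM in αβ T cells), led by *Gzma*, with *Ncr1* at 0. They were found in 9 γδ T cells, and 1 of these held 277 UMIs, so this sum rests in large part on 1 cell. The 6 markers of type 2 innate lymphoid cells summed to 740.3 CPM, led by *Areg*, with *Il1rl1*, *Il5* and *Il13* at 0. *Cd4* was at 0 among the 6 αβ T cell markers, which summed to 761 CPM against 1924 CPM in αβ T cells, led by *Trbc2*. Dendritic cell markers summed to 428 CPM, led by *H2-Aa*, with *Cd209a* at 0. In this case 1 cell, singled out after its values were seen, held all 71 *Fscn1* UMIs, 67 of the 79 *Ccr7* UMIs and 125 *H2-Aa* UMIs beside 4 receptor UMIs. Without it *Ccr7* fell from 108 to 16.9 CPM and *H2-Aa* from 214 to 45.0 CPM.

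Ligands that act on these cells were read in the other barcodes of the graft as a description. *Il23a*, the specific subunit of IL-23, had 0 UMIs in both T cell groups and was at 139 CPM in neutrophil-type barcodes, in 36 of 391 and with 47 of 169 UMIs in 1, against 23.3 CPM in the barcodes outside the named groups, 1.09 CPM in macrophage-type and 2.37 CPM in fibroblast-type barcodes. *Il12b*, the other subunit that IL-23 needs, had 0 UMIs in neutrophil-type barcodes and was found only in 8 barcodes outside the named groups, at 8.71 CPM, so no source of IL-23 is read from these values. *Il1b* was at 4140.2 CPM in neutrophil-type barcodes, 1522 CPM in the barcodes outside the named groups and 427 CPM in macrophage-type barcodes. *Cxcl16*, the ligand of CXCR6, was at 461 CPM in macrophage-type barcodes, in 575 of 660. The IL-17 receptor chain *Il17rc* was at 24.2 CPM in fibroblast-type barcodes, in 61 of 140, and at 0.495 CPM in macrophage-type barcodes, while *Il17ra* was found in every group.

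Promoter sequences are shown for 4 genes that were higher in γδ T cells together, and that were found in part in the same cells, with *Il17a* beside *Cd163l1* in 49 cells, beside *Il23r* in 22 and beside *Il17f* in 18. The letters AGGTCA are the half-site that many nuclear receptors bind, so they and their reverse complement TGACCT were searched on both strands in the 250 bases before each RefSeq gene start (build GRCm38.p6). They were present in 4607 of 32851 windows, or 14.0%. Of 8 genes looked up 4 had a window, and 3 of these held a match. The match began 120 bases before the start of *Il17a* (chr1:20730655-20730904, plus strand), 58 bases before that of *Il17f* (chr1:20784271-20784520, minus strand), and 229 and 66 bases before that of *Il23r* (chr6:67491856-67492105, minus strand). In the window of *Cd163l1* (chr7:140218017-140218266, plus strand) these letters were not found. Matches are in capitals, and a match describes the letters and does not show a bound site.
Il17a: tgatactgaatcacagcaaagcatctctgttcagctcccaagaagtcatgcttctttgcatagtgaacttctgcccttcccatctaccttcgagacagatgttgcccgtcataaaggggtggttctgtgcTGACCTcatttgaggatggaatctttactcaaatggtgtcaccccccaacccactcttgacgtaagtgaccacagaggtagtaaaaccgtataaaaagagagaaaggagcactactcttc
Il17f: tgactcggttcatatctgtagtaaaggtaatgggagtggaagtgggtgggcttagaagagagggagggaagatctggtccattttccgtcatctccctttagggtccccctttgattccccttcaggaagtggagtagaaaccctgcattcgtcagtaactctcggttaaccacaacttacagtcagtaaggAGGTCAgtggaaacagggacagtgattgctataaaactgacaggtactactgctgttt
Il23r: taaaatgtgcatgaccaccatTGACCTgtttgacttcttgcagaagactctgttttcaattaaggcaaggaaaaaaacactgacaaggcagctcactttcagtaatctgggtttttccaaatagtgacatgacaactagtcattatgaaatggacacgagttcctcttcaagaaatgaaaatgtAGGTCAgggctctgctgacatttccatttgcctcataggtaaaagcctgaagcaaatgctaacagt
Cd163l1: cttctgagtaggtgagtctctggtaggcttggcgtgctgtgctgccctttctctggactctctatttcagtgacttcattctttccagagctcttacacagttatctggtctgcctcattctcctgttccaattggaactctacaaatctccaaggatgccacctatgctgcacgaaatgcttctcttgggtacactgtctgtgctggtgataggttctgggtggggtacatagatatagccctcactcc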

How the data were processed

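Droplet libraries (10x Chromium, 3' version 3) were made from the pooled grafts and from the cultures. The authors deposited raw counts of UMIs for each mouse gene and barcode, which the file headers credit to Cell Ranger 3.1.0. The study's methods name a human genome for the alignment while the features are mouse genes, and this was not resolved here. The submitters' processing notes list the build mm9, and the gene identifiers in the files carry no coordinates, so positions are given only for RefSeq promoters. Antibody features were left out of all totals. Members and gene lists were chosen with earlier results of these data known. Levels are CPM of the summed UMIs of a group with exact Poisson intervals, shares have Clopper-Pearson intervals and ratios exact conditional binomial intervals. Genes were counted as higher or lower at 2-fold with 5 CPM added, and medians of lists use that scale. A gene at 0 UMIs was set against a floor of 3 counts. Genes named by rank had at least 50 CPM and UMIs in at least 10% of cells of the higher group. Fibroblast-type barcodes had at least 20 collagen UMIs, and neutrophil-type ones 2% or more *S100a8* and *S100a9* UMIs. Doublets were kept. Counts for gene lists cover all of their genes, and some single genes are not reported here. Calculations used Python 3.11.15, numpy 2.4.6, scipy 1.17.1, pandas 2.3.3 and matplotlib 3.10.9. The gene comparison was run on simulated counts that held counting error only. That check covers the calculation and not the spread among cells or mice. Alternatives covered the rule, the filters, scaling, thinning and weighting of cells.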

Additional observations from a re-analysis of the deposited data

Results flagged for a closer look

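The graft library also listed 20 hashtag antibodies, 14 of them with UMIs, which the comparisons above did not use. In the 111 γδ T cells 4 human hashtags gave most of the signal, with 4435 UMIs of hashtag 2, 2170 of hashtag 3, 6115 of hashtag 4 and 4734 of hashtag 5, and hashtag 10 gave 8. They were flagged as a signal in data that the other results do not draw on. Hashtag 4 was the highest in 79 γδ T cells, hashtag 5 in 19, hashtag 2 in 11 and hashtag 3 in 2, and among 136 αβ T cells these numbers were 92, 32, 9 and 3. The tags did not separate the γδ T cells cleanly. The median of the highest tag was 51 UMIs and that of the second 39, and in 14 of 111 cells the first was at least 2-fold above the second, against 52.8% of all kept barcodes. The labels give no map from hashtags to mice, so no value per mouse is given.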

How the results depend on the processing

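The ratio of *Il17a* kept its direction under the alternatives tried. The number of γδ T cells ranged from 88 to 111 in 9 alternatives and was 35 when at most 1 UMI of *Trac*, *Trbc1* and *Trbc2* was allowed. The share of cells with *Il17a* was 27.0% when cells were thinned to 1000 UMIs and within the interval of the main value in the others. The log2 ratio of *Il17a* was 2.15 when UMIs of both *Trdc* and *Tcrg-C1* were required, which leaves out the 2 cells with the most *Il17a*. It was 4.89 with at most 1 αβ receptor UMI, 5.04 under 5% mitochondrial UMIs and 3.85 with equal weight for each cell, and the cause was not tested. In alternatives chosen after seeing the data, which also covered leaving out the cell with *Fscn1*, it was 2.80 without the 2 highest cells and 2.13 without the 5 highest. The log2 ratio of *Il17f* reversed to -0.52 without its 5 highest γδ T cells and was 4.29 without the 5 highest of both groups. With at most 1 αβ receptor UMI, 597 genes were higher and 665 lower, on fewer cells. The balance of 374 higher and 316 lower also turned to 397 and 399 under 5% mitochondrial UMIs. It was 328 and 355 when the median ratio was set to 0, which shifts every gene alike by a log2 of 0.066. That change follows from the scaling and tests nothing. With a minimum of 50 CPM 236 were higher and 189 lower among 3610 genes, fewer by construction. Of 180 genes named or listed, 20 moved outside their counting interval with equal weight for each cell and 53 with at most 1 αβ receptor UMI (22 gave no value). The small common shift that sets the median ratio to 0 moved 0 of them. With 1 pooled library, no value has an error between mice, and genes with few UMIs, such as *Il23r*, are limited by depth. No paired analysis was possible because each condition has 1 library.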

Other observations

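The inducible heat shock genes *Hspa1a* and *Hspa1b*, looked at after their values were seen, were higher in γδ than in αβ T cells and varied widely among the γδ T cells. *Hspa1a* was at 989.8 against 195 CPM (log2 ratio 2.34, 2.11 to 2.58) and *Hspa1b* at 1335 against 237 CPM (log2 ratio 2.49, 2.28 to 2.70). *Hspa1a* was found in 36 cells with 91 UMIs in the highest, and 19 cells had at least 10. *Hspa1b* was found in 40 cells with 196 UMIs in the highest. The pair are near-identical copies that can share reads. Cells with an *Il17a* UMI had 1357 CPM of *Hspa1a* and those without 659.7 CPM (log2 ratio 1.04, 0.82 to 1.27), but without the 2 highest cells with *Il17a* this fell to 868 CPM (log2 ratio 0.40).

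A few members lacked the common identity genes. The 11 cells without a *Cd163l1* UMI had a median of 5 receptor UMIs, and 2 of them carried *Il17a*. In the 7 of these that also lacked *Trdv4*, *Il17a* was found in 0, *Blk* in 2 and *Lck* in 2. The cell with 271 *Gzma* UMIs was among them and held 10 UMIs of *Nkg7*, 7 of *Klrd1* and 5 of the receptor genes.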
